A study of Rattus norvegicus with 6 samples.

Results

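The baseline transcriptome of rat tendon stem/progenitor cells was described from 3 untreated (Control) libraries. These cells, labelled as mesenchymal stem cells of tendon, had grown for 7 days in F12 medium alone. The members described here are the genes whose mean FPKM over the 3 Control libraries was at least 1. FPKM corrects fragment counts for both gene length and depth, so levels can be compared between genes. The rule took 12657 of the 33300 genes in the deposited table, with a mean of 1.0005 FPKM for the last gene inside and 0.9998 FPKM for the first gene outside. The series holds 3 more libraries, grown with 500 uM N-acetyl-L-cysteine (NAC), which were not used here. The labels enter tenogenic differentiation as the genotype of every sample and name no strain, age, sex or passage. Nothing in them says that the 3 libraries came from separate cultures, so the SDs (n = 3 throughout) measure only the spread between these libraries.

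Tendon is a tissue of parallel type I collagen fibrils, which small leucine-rich proteoglycans and glycoproteins space and join. Its resident progenitor cells can be grown as adherent cells that resemble mesenchymal stromal cells. Scx and Mkx are transcription factors of the tendon lineage, and Tnmd is a membrane protein of mature tenocytes. Cells of this kind secrete collagen, so they also hold a large apparatus of the endoplasmic reticulum (ER) to fold, hydroxylate and export it.

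Working back from FPKM gave 12487215 to 14079556 reads per library, and 99.7% of these lay in the members. For a member of median length, a single read gave 0.0314 to 0.0362 FPKM, and the floor of 3 reads lay at 0.0942 to 0.109 FPKM (counting error alone). In single libraries 12569, 12647 and 12689 genes stood at 1 FPKM or more. Every pair of libraries differed by more than sampling noise. On the reads, chi-square divided by its degrees of freedom was 3.81 for Control 1 and Control 3 but 9.904 and 9.73 for the pairs with Control 2. Across genes, log2(FPKM + 1) correlated at 0.982 to 0.986. Control 2 was the library farthest from the median of the 3 in 41.4% of the members, against 29.3% each for Control 1 and Control 3. In bulk RNA, a gene read in few cells and a gene read weakly in all cells cannot be told apart.

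The labelled cell type was checked first against the 5 genes Scx, Mkx, Dcn, Thbs4 and Col1a1. All 5 were members. The proteoglycan decorin, Dcn (chromosome 7, 38742051 to 38782323), stood at 4436, 4486 and 4545 FPKM in Control 1, 2 and 3 and held rank 4. The type I collagen chain Col1a1 (chromosome 10, 82745801 to 82762789) stood at 2787, 2589 and 2818 FPKM, rank 9. Both were among the most abundant transcripts of every library and varied little. The glycoprotein Thbs4 (chromosome 2, 22343727 to 22385855), thrombospondin 4, stood at 532, 729 and 491 FPKM, with Control 2 the highest of the 3. Scx (chromosome 7, 117519075 to 117521093) stood at 13.9, 12.1 and 11.4 FPKM, rank 5472. Mkx (chromosome 17, 60537935 to 60549750) stood at 5.24, 4.90 and 5.69 FPKM, rank 8626. Both lineage factors were thus read in every library. Scx stood somewhat above the median of the members, 9.92 FPKM, and Mkx below it. The chromosome positions are copied from the authors' table, and the build behind them is not stated by any source used.

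Abundance fell steeply with rank. The 10 most abundant genes held 9.25 ± 0.0908% of the members' summed FPKM, and 457 genes, or 3.61% of the members, held 50%. The order began with Mt-co1, the mitochondrially encoded subunit 1 of cytochrome c oxidase, at 6714 ± 148 FPKM. Lcn2, which encodes the secreted siderophore-binding lipocalin 2, followed at 6240.5 ± 376 FPKM, and Thbs1, thrombospondin 1, at 5342 ± 329 FPKM. After Dcn came Thbs2, thrombospondin 2, at 3187 ± 34.6 FPKM and the collagen-binding glycoprotein Sparc at 2984 ± 52.5 FPKM. Mt-cox3, subunit 3 of cytochrome c oxidase, lay at rank 7 (2911 ± 83.1 FPKM). Col1a1 stood at 2731 ± 124 FPKM, rank 9. Eef1a1, a translation elongation factor, closed the first 10 at 2668 ± 51.6 FPKM. Actb (2656 ± 212 FPKM), Mgp (2567 ± 156 FPKM), Mmp2 (2529.5 ± 92.8 FPKM) and Vim (2500.3 ± 247 FPKM) followed, all within the SD of Actb below it. These are cytoplasmic actin, the calcification inhibitor matrix Gla protein, a gelatinase and the intermediate filament protein vimentin. Of the 30 most abundant genes, 16 were in the lists of extracellular matrix and secreted proteins described next.

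**Figure D1:**
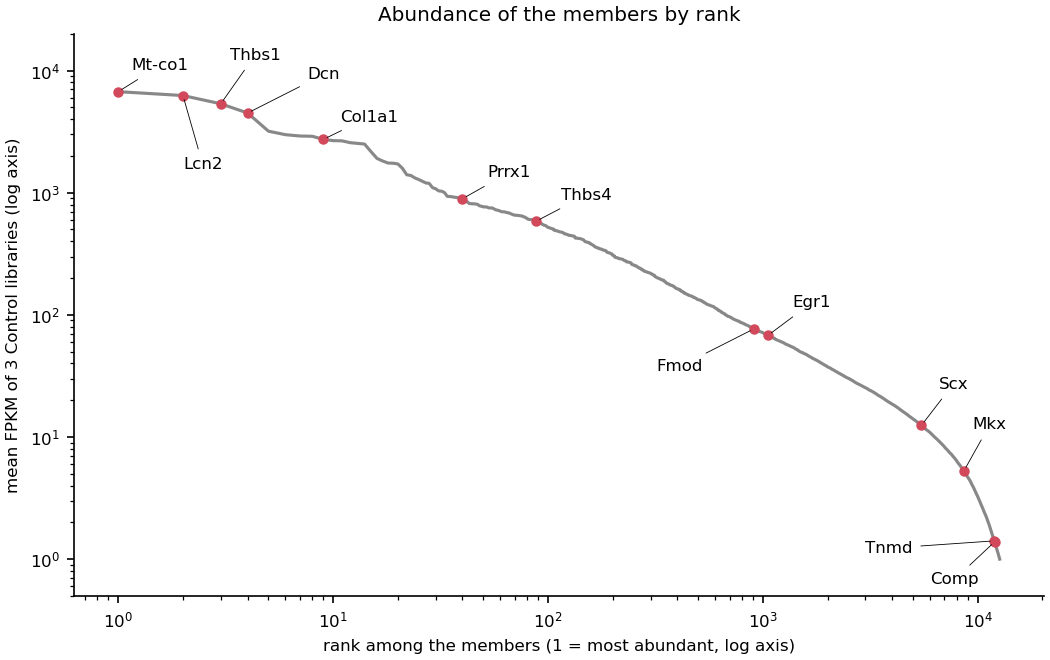
Mean FPKM of the 12657 members over 3 Control libraries (vertical axis, log scale) against their rank (horizontal axis, log scale), with identity genes and leading genes marked. Dcn, Thbs1 and Col1a1 lie among the first 10, Scx and Mkx at ranks 5472 and 8626, and Tnmd and Comp near the end of the curve at 1.41 and 1.39 FPKM.

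Genes of the core extracellular matrix (collagen chains, matrix glycoproteins and proteoglycans) held 9.88 ± 0.0366% of the members' summed FPKM. The share was 9.84%, 9.91% and 9.87% in the 3 libraries. As a share of reads, which are not divided by gene length, it was 17.3 ± 0.122%. Of 222 core matrix genes in the table, 132 were members and 19 were among the 100 most abundant genes. Among all 22293 protein-coding genes, 11367 were members. A list with a similar share of members, here or below, is not set apart by its count. Whether any list held more members than other genes was not tested.

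Among collagens, 26 of 43 chains were members, with 1.81 ± 0.0498% of the summed FPKM and 4.72% of the reads. The second chain of type I collagen, Col1a2, stood at 691, 564 and 549 FPKM. The fibril-associated chain Col12a1 stood at 887.7, 955.5 and 954.5 FPKM, above both Col1a2 and the type III chain Col3a1 (688, 657 and 712 FPKM) in every library. Col5a2, of the type V collagen that forms the core of fibrils, stood at 529, 623 and 557 FPKM. Chains of the basement membrane, Col4a2 (303 ± 14.0 FPKM) and Col4a1 (294 ± 12.6 FPKM), and of type VI collagen, Col6a2 (385 ± 11.2 FPKM) and Col6a1 (354 ± 11.9 FPKM), were also abundant, whereas Col6a3, the third chain of type VI, stood at 17.9 ± 0.810 FPKM. The cartilage chain Col2a1 was listed at 0 in 2 libraries and at a mean of 0.0150 FPKM. These basement membrane, type VI and type II chains were chosen after their values were seen, apart from Col6a1.

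Matrix glycoproteins held the largest part of the core matrix, 6.17 ± 0.0915% of the summed FPKM, with 90 of 146 genes as members. Thbs1 stood at 5135, 5722 and 5169 FPKM, Thbs2 at 3167, 3227 and 3167 FPKM, Sparc at 3041, 2973 and 2938 FPKM and Fn1, fibronectin, at 1671, 1684 and 1804 FPKM. Both thrombospondins, which bind matrix proteins and growth factors, thus lay above the most abundant collagen chain in each library. Ctgf, a matricellular protein induced by TGF-beta and by stretch, stood at 1349, 1415 and 1199 FPKM. Proteoglycans held 1.896 ± 0.0215%, with 16 of 33 genes as members, and Dcn alone was the greater part of it. Bgn, biglycan, stood at 1738, 1749 and 1743 FPKM, a coefficient of variation (CV, the SD as a percent of the mean) of 0.332%, less than the 0.415% that counting alone gives. Lum, lumican, stood at 771, 753 and 798 FPKM. Prelp, a leucine-rich repeat protein that links matrix to basement membrane, stood at 340.5, 298 and 310.1 FPKM. Esm1, a secreted dermatan sulfate proteoglycan, stood at 520.5, 749 and 494 FPKM and was highest in Control 2. One small leucine-rich proteoglycan stood out for its spread: Aspn, asporin, stood at 1.76, 7.73 and 13.5 FPKM (chosen after its values were seen).

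Enzymes that process or degrade matrix, and their inhibitors, held 4.36 ± 0.117% of the summed FPKM, with 92 of 133 genes as members. Slpi, a secreted inhibitor of leukocyte proteases, stood at 904, 1437 and 959 FPKM and was highest in Control 2. Mmp2 stood at 2486, 2636 and 2467 FPKM and the inhibitor Timp2, which also takes part in its activation, at 1247, 1146 and 1213 FPKM. The membrane-bound activator of Mmp2, Mmp14, stood at 632, 653 and 619 FPKM, and Lox, which starts the crosslinking of collagen, at 641, 612 and 643 FPKM (both chosen after their values were seen). Secreted growth factors and cytokines held 3.07 ± 0.0923%, with 108 of 157 genes as members. The chemokines Ccl7 (1789, 1928 and 1733 FPKM) and Ccl2 (1049, 1416 and 1108 FPKM) led it together with S100 proteins, of which S100a6 stood at 1352, 1453 and 1345 FPKM. Together these matrix and secreted lists, with each gene counted once, held 17.2 ± 0.243% of the summed FPKM and 24.4% of the reads, and 35 of the 100 most abundant genes.

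The machinery of secretion varied less between libraries than all members together. Of 126 genes for translocation into the ER, folding and collagen processing there, and vesicle transport from ER to Golgi, 122 were members. They held 2.84 ± 0.0453% of the summed FPKM. The median CV of these members was 3.55%, against 7.29% over all members and 8.70% over the core matrix genes. Members of this list had a median of 56.3 FPKM, and all members between 30 and 100 FPKM had a median CV of 4.38%. Lysosomal genes and translation factors had median CVs of 3.25% and 3.60%, so a low value was not particular to the secretion genes. All 33 translocation genes were members, led by Rpn2, a subunit of the oligosaccharyltransferase, at 221, 227 and 217 FPKM. In folding and collagen processing 44 of 45 genes were members. The collagen chaperone Serpinh1 (HSP47) stood at 827, 789 and 791 FPKM, P4hb, the disulfide isomerase that is also the beta subunit of prolyl 4-hydroxylase, at 712, 688 and 694 FPKM, and the chaperone Calr, calreticulin, at 665, 648 and 649 FPKM. In vesicle transport 45 of 48 genes were members, led by the GTPase Arf1 (266, 279 and 266 FPKM) and the cargo receptor Tmed10 (250.4, 255 and 249 FPKM).

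**Figure D2:**
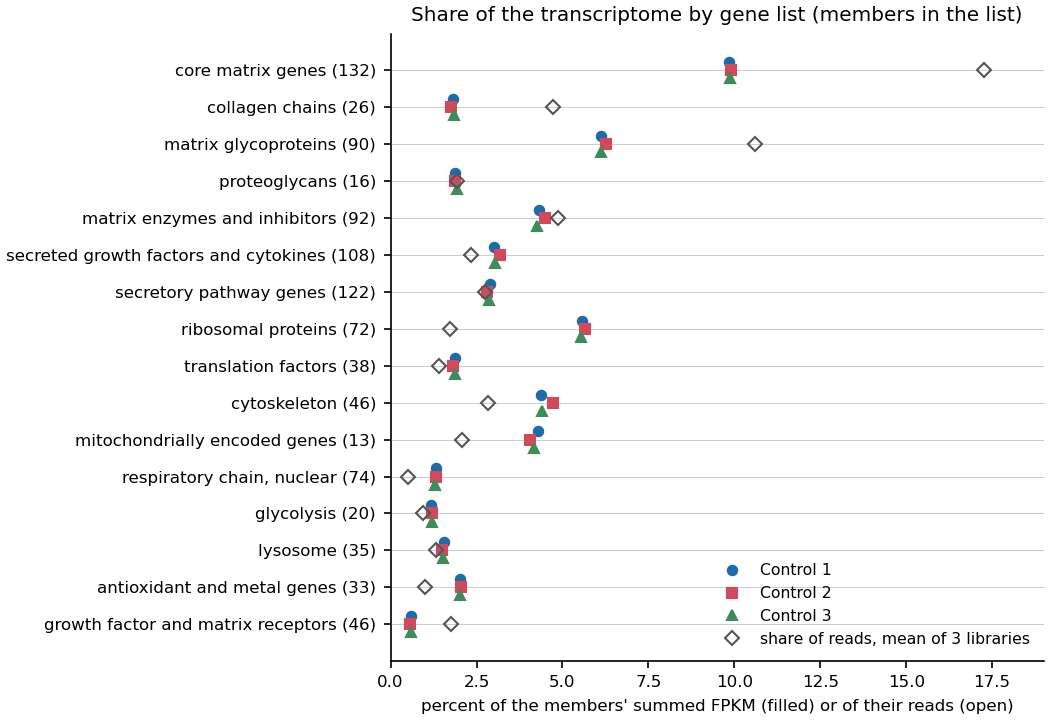
Share of the members' summed FPKM held by each gene list in Control 1, 2 and 3 (filled symbols) and its mean share of the reads (open diamonds), in percent, with the number of members of each list in parentheses. The 3 libraries lie close together in each list, with core matrix genes at 9.84% to 9.91% of FPKM but 17.3% of reads.

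Among the other large lists, ribosomal proteins held 5.59 ± 0.0601% of the summed FPKM (72 of 83 genes as members), the cytoskeleton 4.49 ± 0.192% (46 of 48) and the 13 protein-coding genes of mitochondrial DNA 4.17 ± 0.115%. Translation factors held 1.86 ± 0.0303% (38 of 39), lysosomal genes 1.54 ± 0.0276% (35 of 36), nuclear genes of the respiratory chain 1.31 ± 0.0139% (74 of 81) and glycolysis 1.201 ± 0.0219% (20 of 20). Antioxidant and metal-binding genes held 2.03 ± 0.0263%, with 33 of 37 genes as members. In that list Ftl1, the ferritin light chain, stood at 2227, 2168 and 2112 FPKM, extracellular superoxide dismutase Sod3 at 1331, 1527 and 1349 FPKM and mitochondrial superoxide dismutase Sod2 at 901, 887 and 903 FPKM. Receptors for growth factors and matrix held 0.583 ± 0.0239%, with 46 of 60 genes as members. Lrp1, a large endocytic receptor, led these at 514, 503 and 543 FPKM. Pdgfra and Pdgfrb, receptors of platelet-derived growth factor on mesenchymal cells, stood at 233 ± 22.1 and 132 ± 10.988 FPKM. Of 25 integrin subunits 13 were members. The common beta 1 subunit Itgb1 stood at 291, 302 and 295 FPKM, and Itga11, a collagen-binding alpha subunit, at 220.5, 216.5 and 207.5 FPKM, the highest of the alpha subunits. Itga5, which pairs with Itgb1 as the fibronectin receptor named in the study title, stood at 52.55, 59.3 and 50.65 FPKM.

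Of 9 tendon transcription factors, 8 were members. Nfatc4 stood at 37.3, 34.96 and 37.1 FPKM, above Scx in every library. Mkx lay below Scx in every library. Eya2 (2.24 ± 0.158 FPKM) and Six2 (2.02 ± 0.363 FPKM) did not differ beyond their spread, and Eya1 was listed at 0 in 2 libraries. Egr1 stood at 39.9, 128 and 35.5 FPKM and Egr2 at 3.93, 9.74 and 2.95 FPKM, both highest in Control 2. Egr1 and Egr2 take part in tendon collagen expression and are also induced within minutes of many stimuli.

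Of 29 tendon matrix genes, 23 were members and 11 were among the 100 most abundant. They held 4.23 ± 0.0462% of the summed FPKM. The order ran from Dcn, Thbs2, Col1a1 and Bgn through Tnc, Col12a1, Lum, Col3a1, Col1a2, Thbs4 and Col5a2 to Col6a1, at 354 ± 11.9 FPKM. Tnc, tenascin C, stood at 876, 1259 and 950 FPKM, so its place relative to Col12a1 differed between libraries. Below these came Col5a1 (199.6 ± 5.54 FPKM), the elastic microfibril protein Mfap5 (176 ± 18.5 FPKM) and Col14a1 (174 ± 26.9 FPKM), then Fmod, fibromodulin, at 87.3, 69.6 and 73.6 FPKM. Col11a1 stood at 24.2 ± 1.48 FPKM, Cilp at 15.5 ± 4.16 FPKM, Fibin at 12.96 ± 2.24 FPKM, Angptl7 at 12.8 ± 5.19 FPKM and the lubricant Prg4 at 5.64 ± 0.945 FPKM. The remaining genes of the list were the lowest. Tnmd stood at 1.797, 1.06 and 1.38 FPKM and Comp, cartilage oligomeric matrix protein, at 1.59, 1.01 and 1.56 FPKM, about 26.0 and 53.7 reads per library. Chad (0.570 FPKM), Kera (0.418 FPKM) and Cilp2 (0.244 FPKM) were below 1, as was Ptx4, and Chodl and Mfap4 were listed at 0.

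Of 13 genes of the tendon sheath and of progenitors described there, 8 were members. S100a4, a calcium-binding protein of fibroblasts, stood at 804, 788 and 847 FPKM and Cd55, a complement regulator, at 135, 178 and 132 FPKM. Pdgfra and Pdgfrb, given above, are also in this list, whose members had a median of 68.8 FPKM. Pi16 stood at 3.71 ± 0.303 FPKM and Axin2, a target of Wnt signalling, at 1.34 ± 0.0404 FPKM, while Tppp3, by which sheath progenitors are known, stood at 0.372, 0.804 and 0.558 FPKM. Of the fibroblast identity list, Vim led, and the mesenchymal factors Snai1 (49.4 ± 1.04 FPKM), Twist1 (29.2 ± 1.43 FPKM) and Zeb1 (25.1 ± 0.814 FPKM) were members, while Tcf21 was listed at 0. Tppp3, Snai1, Twist1, Zeb1 and Tcf21 were chosen after their values were seen.

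**Figure D3:**
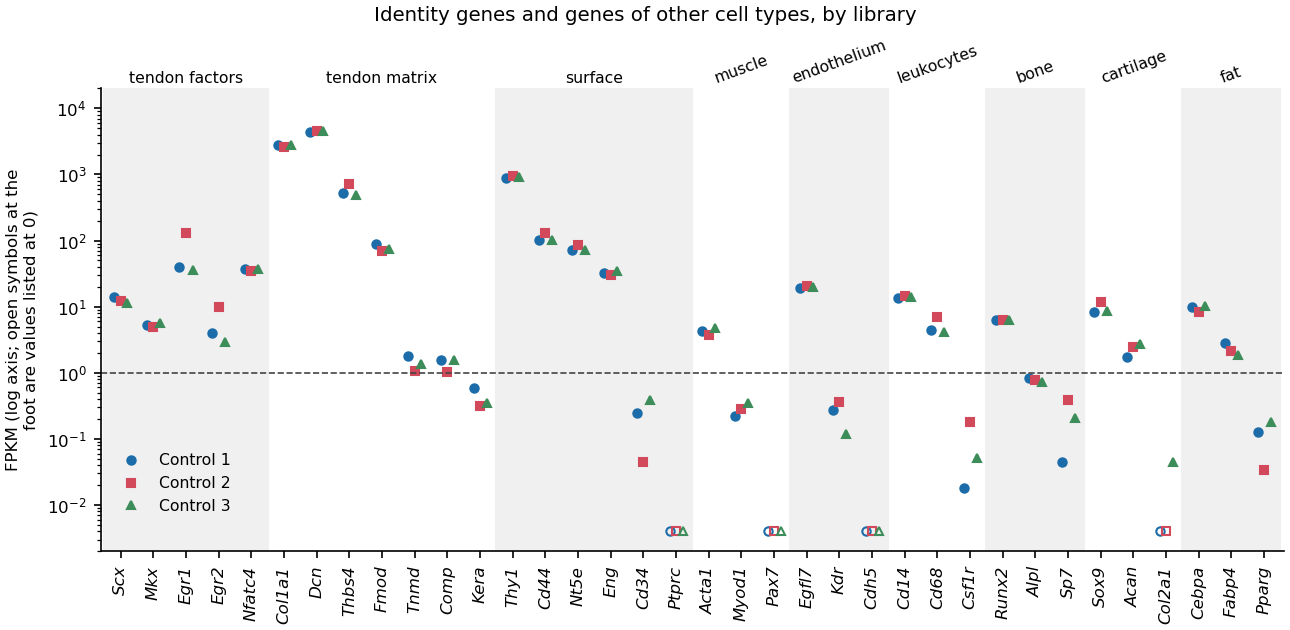
FPKM in each Control library (log axis, 1 symbol per library) of tendon factors, tendon matrix genes, surface markers and genes of other cell types, with the threshold of 1 FPKM as a dashed line and values listed at 0 as open symbols at the foot. Col1a1 and Dcn lie far above Thy1 (874 to 946 FPKM), and Scx and Mkx between 4.90 and 13.9 FPKM. Genes of endothelium, leukocytes, bone and fat lie on both sides of the line. Cdh5, Ptprc, Sp7 and Pparg are below it, and Egfl7, Cd14, Cd68, Runx2, Cebpa and Fabp4 above it.

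Surface genes by which mesenchymal stromal cells are recognised were present. Of 19 such genes 17 were members. Thy1 (CD90) led at 874, 946 and 927 FPKM, followed by the tetraspanins Cd63 (750.3 ± 15.98 FPKM), Cd81 (725 ± 15.6 FPKM) and Cd9 (347 ± 19.7 FPKM) and by Itgb1 (296 ± 5.36 FPKM). Pdpn (193 ± 3.91 FPKM), Anpep (125 ± 17.3 FPKM), Cd44 (112 ± 15.4 FPKM), Nt5e, which encodes CD73 (77.2 ± 8.53 FPKM), and Icam1 (77.2 ± 2.198 FPKM) formed a middle group, in which Nt5e and Icam1 did not differ beyond their spread. Alcam (36.4 ± 2.67 FPKM), Eng, which encodes CD105 (32.6 ± 2.499 FPKM), Cd276 (22.4 ± 0.737 FPKM) and Cd200 (20.1 ± 1.54 FPKM) were lower. Vcam1 (4.28 ± 1.59 FPKM), Mcam (2.05 ± 0.151 FPKM) and Bst2 (1.39 ± 0.0126 FPKM) were the lowest members. Ngfr stood at 0.117 FPKM, and Cd151 at a mean of 0.0478 FPKM, an uncertain value, since a locus described as CD151-like held far more reads. Of 9 surface genes that such cells lack by definition, Cd14 was the only member, at 13.6, 14.4 and 14.1 FPKM. Cd34 stood at 0.247, 0.04455 and 0.3865 FPKM, and the leukocyte antigen Ptprc (CD45) and the B-cell gene Cd79a were listed at 0 in all 3 libraries.

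Genes of other cells found in tendon samples were read in part, from lists that held between 0 and 6 members each. Of 15 endothelial markers Egfl7, a secreted protein also made by other cells, was the only member (19.4, 20.8 and 20.1 FPKM), while Cdh5, Tie1 and Emcn were listed at 0 and Kdr stood at 0.275, 0.360 and 0.118 FPKM. The summed FPKM of the endothelial list was 20.9 to 21.9 per library. Of 18 macrophage and leukocyte markers 4 were members: Cd14, Lyz2 (5.59 ± 0.972 FPKM), Cd68 (5.18 ± 1.61 FPKM) and Cd53 (1.46 ± 0.776 FPKM). The summed FPKM of that list was 25.2 to 30.2, and Ptprc, Tyrobp, C1qa, C1qb and C1qc were listed at 0. None of 17 lymphocyte and mast cell markers and none of 8 erythroid markers was a member. Of 17 skeletal muscle markers 2 were members, the fast troponin Tnnt3 (26.2, 23.7 and 23.0 FPKM) and Acta1 (4.204 ± 0.518 FPKM), while the satellite cell factors Pax7 and Myf5 were listed at 0 and Myod1 stood at 0.224 to 0.350 FPKM. Of 11 Schwann cell markers 2 were members, S100b (46.1, 54.2 and 49.7 FPKM) and Cnp (32.6 ± 0.848 FPKM), while Sox10 and Mag were listed at 0. Of 13 epithelial markers 2 were members, Krt7 (4.22 ± 1.02 FPKM) and Krt8 (1.06 ± 0.433 FPKM), while Epcam and Krt14 were listed at 0. Of 13 pericyte and smooth muscle markers 6 were members. Ndufa4l2 stood at 274, 265 and 276 FPKM, the smooth muscle myosin Myh11 at 21.9, 22.4 and 21.5 FPKM and the pericyte proteoglycan Cspg4 at 16.98, 20.5 and 17.5 FPKM. Des (2.37 ± 0.607 FPKM), Mcam and Cd248 (1.996 ± 0.239 FPKM) were lower, the pericyte gene Rgs5 was listed at 0 in 2 libraries and Kcnj8 stood at 0.0575 to 0.124 FPKM. The part of other cell types in these levels was not tested.

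Genes of the lineages into which such cells can be driven were read in part. Of 17 bone genes 8 were members, among them Spp1, osteopontin (44.4, 85.4 and 41.3 FPKM, highest in Control 2), Ankh (22.8 ± 3.57 FPKM), Enpp1 (11.2 ± 0.523 FPKM), Msx1 (8.63 ± 0.421 FPKM), the master factor Runx2 (6.26, 6.38 and 6.38 FPKM), Dlx3 and Ibsp. The osteoblast factor Sp7 stood at 0.0447 to 0.387 FPKM, and the osteocyte genes Sost and Dmp1 were listed at 0. Of 18 cartilage genes 4 were members, Matn4 (10.6 ± 2.86 FPKM), the chondrogenic factor Sox9 (8.30, 11.9 and 8.57 FPKM), Acan (2.299 ± 0.506 FPKM) and Col9a2. Of 16 fat genes 10 were members. Lpl, lipoprotein lipase, stood at 975, 1149 and 878 FPKM and the factors Cebpd and Cebpb at 472 ± 26.0 and 355 ± 34.9 FPKM, all of which many fibroblasts also express. The lipid droplet gene Plin2 stood at 77.8, 112 and 84.8 FPKM, Fabp5 at 32.2 ± 5.61 FPKM, Dgat2, an enzyme of triglyceride synthesis, at 12.9 ± 0.0401 FPKM and Cebpa at 9.48 ± 1.102 FPKM. Of genes more specific to adipocytes, Fabp4 stood at 2.26 ± 0.511 FPKM, Pparg at 0.0342 to 0.178 FPKM, and Adipoq was listed at 0. Contractile genes were abundant, with 16 of 18 as members. Tpm4, a tropomyosin, stood at 595, 651 and 593 FPKM, Tagln, transgelin, at 451, 541 and 438 FPKM and Acta2, alpha smooth muscle actin, at 349, 416 and 335 FPKM. Of 13 pluripotency genes, Klf4, Gnl3 and Myc were members, none of them specific to that state, while Nanog was listed at 0 and Pou5f1 and Sox2 stood at means of 0.166 and 0.0217 FPKM.

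Transcription factors were ranked by the protein domain that the deposited table gives per gene. The table files some factors under other domains or none, and these are outside the ranking. They include Junb (170.8 ± 57.1 FPKM), Nr4a1 (115 ± 57.6 FPKM), Egr1 and Mkx. Over 23 DNA-binding domains, 319 of 709 genes were members, with a median of 8.78 FPKM and 1.64% of the members' summed FPKM. Not all of these encode transcription factors: Tmem9b, a transmembrane protein, and Rab24, a small GTPase, are filed under HLH and counted. Prrx1, a homeobox factor of limb and connective tissue mesenchyme, led at 865, 938 and 875 FPKM, rank 40 of all members. Cebpd and Cebpb followed, then Id3 (355 ± 51.6 FPKM), Atf4 (158 ± 6.63 FPKM), the mesenchymal factor Twist2 (153 ± 16.4 FPKM) and Prrx2 (143 ± 11.8 FPKM). Atf4, like Atf5, Nfe2l1 and Xbp1 (106 ± 6.09, 105 ± 3.42 and 99.2 ± 1.81 FPKM), acts in stress of the ER, in amino acid supply or in protein turnover, and Nfe2l2 (97.6 ± 4.23 FPKM) drives antioxidant genes. Id3, Twist2 and Prrx2 belong to a list of fibroblast identity genes of which 29 of 35 were members. The rest of these were chosen after their values were seen. Homeobox genes had a low share of members, 37 of 183, whereas all 4 genes filed under MH1 (Nfix, Nfic, Nfib and Nfia), all 4 TEA and all 5 SRF-type genes were members.

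The limb position list had 15 of 20 genes as members, of which En1 was the highest. En1 stood at 95.2, 93.6 and 89.0 FPKM and Shox2, a limb skeletal and tendon patterning factor, at 50.2, 46.5 and 45.5 FPKM. The hindlimb factors Tbx4 (12.1, 9.34 and 10.8 FPKM) and Pitx1 (10.8, 9.88 and 10.9 FPKM) were members, and their levels did not differ beyond the spread. Tbx5, the forelimb counterpart of Tbx4, stood at a mean of 0.0299 FPKM, under the floor of 3 reads (Tbx4, Pitx1 and Tbx5 were chosen after their values were seen). Of 35 Hox genes, which mark position along the body and limb axes, 12 were members. These were 6 of 8 genes of the C cluster, 5 of 9 of the D cluster, 1 of 8 of the A cluster and none of 10 of the B cluster. Hoxc10 was highest at 8.63, 8.59 and 9.11 FPKM, followed by Hoxd8 (3.91 ± 0.1200 FPKM), Hoxd9 (3.01 ± 0.600 FPKM) and Hoxa11 (2.94 ± 0.275 FPKM), of which Hoxd9 and Hoxa11 did not differ beyond their spread. By position, 8 of 14 genes numbered 9 to 13 were members, 4 of 14 numbered 4 to 8 and none of 7 numbered 1 to 3. The donor site of the cells is given in the labels only as tendon.

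Genes known to be induced in inflammation stood high in these untreated cells. Their list, the complement list and the low-oxygen list were drawn up after values had been seen, and are given as a description. Of 42 such genes 37 were members, with 3.82 ± 0.0591% of the summed FPKM, and 7 were among the 100 most abundant genes. Lcn2 stood at 6463, 5806 and 6452 FPKM, and alone held 1.44% of the summed FPKM, more than the 0.554% of the whole list of ER translocation genes. Pla2g2a, a secreted phospholipase, stood at 1435, 982 and 1430 FPKM, lowest in Control 2. Ccl2 and Slpi went the other way, as given above. Ptx3, pentraxin 3, stood at 496, 398 and 447 FPKM, the neutrophil chemokine Cxcl1 at 305, 370 and 353 FPKM, Ccl20 at 229.7, 303 and 240.2 FPKM, Il6 at 153, 270.0 and 172 FPKM and Ptgs2, cyclooxygenase 2, at 48.2, 116 and 63.5 FPKM. The initiating cytokines were low or not read: Il1a stood at 9.14, 24.8 and 11.9 FPKM, Il1b at 2.03, 5.18 and 2.39 FPKM, and Tnf was listed at 0. Of the interferon-induced chemokines, Cxcl10 stood at 1.75 ± 0.207 FPKM and Ccl5 below 1. Of 28 complement genes 15 were members. The central component C3 stood at 722, 686 and 735 FPKM, and the proteases of the first complex, C1s and C1r, at 670, 590 and 674 FPKM and at 679, 598 and 652 FPKM. C1qa, C1qb and C1qc, which form the recognition part of that complex, were listed at 0, and so was Cfb.

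Of 22 genes induced by low oxygen all were members, with 1.14 ± 0.0287% of the summed FPKM. Lactate dehydrogenase Ldha stood at 746, 780 and 766 FPKM, the secreted stanniocalcin Stc1 at 574, 820 and 569 FPKM, adrenomedullin Adm at 571, 632 and 560 FPKM, Vegfa at 168 ± 7.69 FPKM and Bnip3 at 166 ± 1.76 FPKM. Stc1 was far highest in Control 2, as was Hilpda, a lipid droplet protein (29.05, 39.7 and 28.9 FPKM), while the list as a whole varied little (median CV 4.92%). Several of these genes, such as Ldha and Pgk1 (542 ± 4.87 FPKM), are also housekeeping enzymes of glycolysis.

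Genes of cell division were read, but low. Of 20 S phase genes 18 and of 21 genes of G2 and mitosis 19 were members, with medians of 4.65 and 2.29 FPKM, below the 9.92 FPKM of all members. Pcna, the sliding clamp of replication, stood at 26.55, 21.2 and 23.5 FPKM, Cdk1 at 10.5, 12.7 and 13.5 FPKM and the proliferation antigen Mki67 at 1.68, 2.14 and 2.303 FPKM (chosen after its values were seen). All 13 cell cycle inhibitors were members. Gas1, a growth arrest protein of the cell surface, stood at 554, 412 and 510 FPKM, Cdkn1a, which encodes p21, at 120, 130 and 116 FPKM and Cdkn1b, which encodes p27, at 44.0, 42.0 and 44.0 FPKM. Transcripts of the Y chromosome were read in all 3 libraries, with Eif2s3y at 26.7, 23.1 and 24.8 FPKM and Ddx3y at 23.4, 23.4 and 24.2 FPKM.

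Some values in the table are uncertain, since how reads were divided between similar loci is not known. Fth1, the ferritin heavy chain, and the ribosomal protein genes Rpl23a and Rpl10a, which every cell uses, were listed at 0 in all 3 libraries, so a value of 0 in this table is not evidence that a gene is silent. Gpx4 and Myh9 likewise stood at means of 0.540 and 0.433 FPKM. For some genes a locus described as like them held far more reads. Cd151, a tetraspanin, held 4 reads over the 3 libraries, and the locus LOC100911730, described as CD151-like and on the same chromosome, held 1296. Rplp2, a ribosomal stalk protein, held 1 read against 1627 for LOC100911575, and Rps6 held 257 against 1219 for LOC100911372. Several such loci were among the most variable. LOC100911730 stood at 8.14, 8.80 and 38.5 FPKM and LOC100911575 at 19.6, 238 and 94.0 FPKM. The Capns1-like locus LOC100911363 stood at 5.88, 98.7 and 78.6 FPKM, and the Nfs1-like locus LOC100911034 at 25.4, 16.8 and 1.53 FPKM. The pairs were chosen after these values were seen. Short RNA classes were another weak spot: 429 members were snoRNA, miRNA, snRNA and similar genes, and 327 of them rested on a mean of under 10 reads. Of 11367 protein-coding members this was so for 61.

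Spread among the 3 libraries was small for most members. The median CV was 7.29%, with quartiles at 4.07% and 13.4%, and the median counting error alone gives 5.60%. In the class from 1 to 3 FPKM the median CV was 18.0%, where counting gives 14.7%. From 100 to 300 FPKM it was 3.97%, where counting gives 1.65%. Above 1000 FPKM it was 5.53%, where counting gives 0.452%. The median CV was thus above the counting error in each of these classes. As a ratio per gene, the median was 1.16, 2.28 and 9.35 from the lowest of these classes to the highest. The counting error falls as reads rise, so this ratio does not show that abundant genes vary more in percent. The median CV itself was highest in the lowest class. In all, 2874 members (22.7%) had a CV of at least 2 times the counting error. This rose from 15.5% of members at 1 to 3 FPKM to 32 of the 33 genes above 1000 FPKM. Without Control 2 the CV of the other pair reached that level in 2114 members. Of these, 1347 were shared with all 3 libraries (46.9% of the one set and 63.7% of the other). A CV of 2 libraries is less sure than a CV of 3, so the 2 sets were not called alike. The share that counting alone would call is not given beside either.

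**Figure D4:**
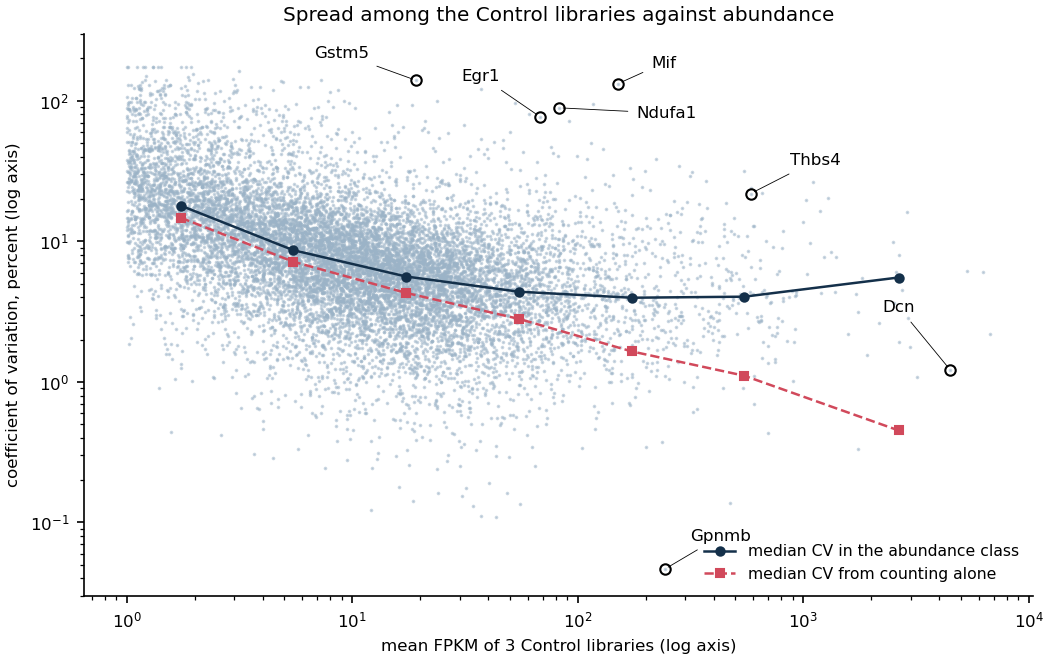
Coefficient of variation over 3 Control libraries in percent (vertical axis, log scale) against mean FPKM (horizontal axis, log scale), 1 point per member, with the median per abundance class (dark circles) and the median expected from counting alone (red squares). The lines run close together at low FPKM (18.0% and 14.7%) and part above 100 FPKM, and Mif, Gstm5, Ndufa1 and Egr1 lie far above both.

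Among the 6301 members with a mean of at least 10 FPKM, 36 had a CV of at least 50%. Of these, 17 carried a placeholder name (a clone, LOC or RGD number, or none), 47.2% against 6.73% of all 6301. Among the widest were genes in which a single library stood far above the others. Gstm5, a glutathione transferase, stood at 4.55, 2.95 and 50.3 FPKM, Mif, macrophage migration inhibitory factor, at 39.9, 381 and 31.3 FPKM and the stress protein Nupr1 at 89.1, 13.3 and 9.48 FPKM. A second entry named Nupr1 on the same chromosome held 3 reads. Ndufa1, a subunit of respiratory complex I, was instead far lowest in a single library (146, 1.84 and 99.8 FPKM). The selenoprotein Sepw1 differed widely between all 3 libraries (7.89, 107 and 42.6 FPKM). Ndufa1 stood apart from its list: the summed share of nuclear respiratory chain genes was 1.31%, 1.33% and 1.30%. The RGD1564606 locus, described as similar to ribosomal protein L23a, stood at 11.9, 50.7 and 8.54 FPKM, while Rpl23a itself was listed at 0. Gorasp2, a Golgi reassembly stacking protein, has a pair of entries on chromosome 3. The more variable one stood at 31.1, 14.2 and 1.901 FPKM. Tsen34, a subunit of the tRNA splicing enzyme, stood at 10.8, 38.2 and 14.0 FPKM. At the other end, Gpnmb, a transmembrane glycoprotein, stood at 242.5, 243 and 242.6 FPKM, a CV of 0.0465%. The 10 lowest CVs, 0.0465% to 0.162%, also held Itm2c (474 ± 0.654 FPKM), Fastk, Aida, Puf60, Fyttd1, Aamp, Tbce, Spg7 and LOC100362142. Each was smaller than the counting error of its gene, which was 0.894% to 4.41%. These genes were picked as the lowest of 6301 with 3 values each, so they are not shown to be more stable than others.

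A second group of variable genes was led by Control 2. Of 21 immediate early genes with a mean of at least 10 FPKM, which are switched on within minutes of a growth factor or stretch without new protein, 17 were highest in Control 2, and their median log2 difference from the mean of the other 2 libraries was 0.39. Over all 6301 genes of that abundance Control 2 was highest in 41.6% and the median was 0.013. Nr4a1, an orphan nuclear receptor, stood at 79.6, 181 and 82.9 FPKM. Dusp1, a phosphatase of MAP kinases, stood at 173, 321 and 172 FPKM, Junb, an AP-1 subunit, at 140.5, 237 and 135 FPKM and Cyr61, a matricellular protein, at 462, 745 and 432 FPKM. In Egr1, Btg2 (20.2, 55.4 and 18.0 FPKM), Zfp36 (40.2, 68.0 and 35.3 FPKM) and Ier3 (58.5, 96.1 and 60.7 FPKM) the same library stood out, while Control 1 and Control 3 lay close together. Rhob was higher there by less (87.2, 97.5 and 88.1 FPKM). Ier5 (48.7 to 50.8 FPKM) and Jund (56.7 to 60.4 FPKM) differed little between libraries, and Klf4 was lowest in Control 2 (36.4, 28.7 and 39.8 FPKM). All 14 contractile genes of that abundance were highest in Control 2, but by less, with a median log2 difference of 0.16. In the cytoskeleton list this was so for 33 of 43 genes, with a median of 0.10, in glycolysis for 15 of 19 (0.081), among nuclear respiratory chain genes for 48 of 70 (0.084), among ribosomal proteins for 49 of 68 (0.069) and among secreted factors and cytokines for 42 of 74 (0.099). With FPKM rescaled to the same sum per library, Control 2 was highest in 30 of the 43 cytoskeleton and 37 of the 68 ribosomal protein genes, beside 1891 of all 6301, and still in 17 of 21 and 14 of 14 of the other lists. The medians were then 0.35 for immediate early genes, 0.12 for contractile genes, 0.064 for the cytoskeleton and 0.029 for ribosomal proteins, beside -0.027 over all genes.

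Cytokine genes were also among those led by Control 2: Lif (29.6, 84.5 and 36.4 FPKM), Csf2 (17.3, 39.2 and 15.9 FPKM), Il1a and Il6 (chosen after their values were seen). The inflammation list as a whole was not, with 14 of 31 genes highest there and a median of 0.045. Tendon matrix genes had a median of -0.075 in Control 2, where 7 of 20 were highest and 11 lowest. Angptl7 (16.5, 6.87 and 15.02 FPKM) and Cilp (19.8, 11.5 and 15.1 FPKM) were lowest there, while Thbs4 and Tnc were highest. Collagen chains had a median of 0.037 and folding genes of the ER one of -0.0098, beside 0.013 over all genes. Control 2 was also the library of lowest depth, with 12487215 reads against 13261160 and 14079556. The labels name no batch or day, and the part of depth in these differences was not tested.

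**Figure D5:**
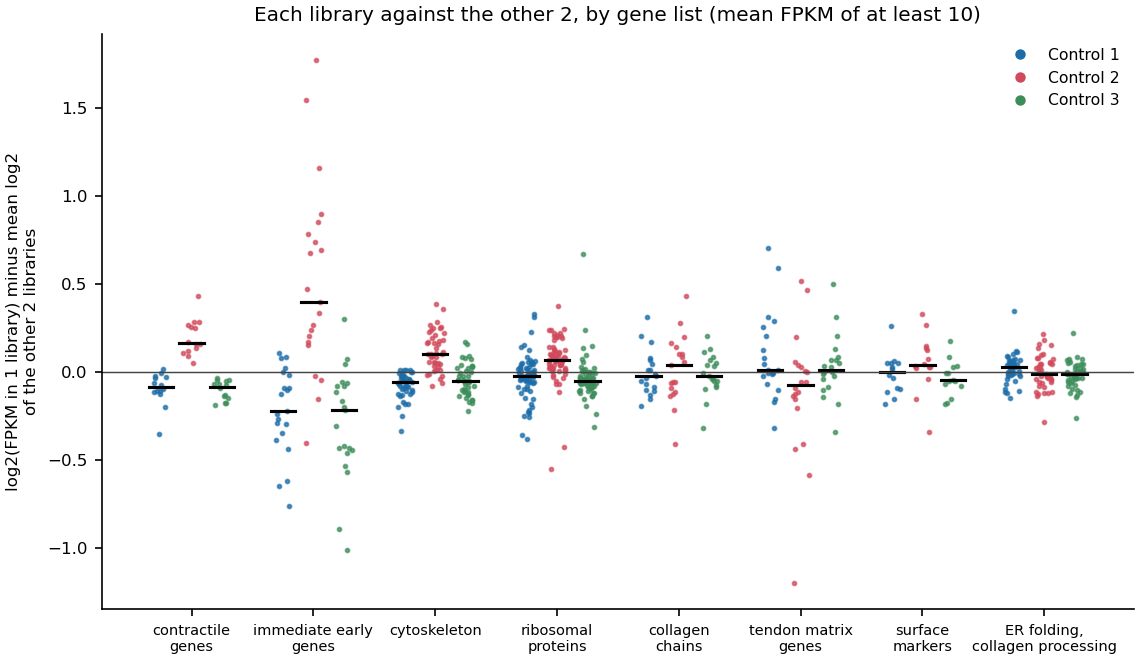
Difference in log2 FPKM between each Control library and the mean of the other 2 (vertical axis) for the genes of 8 lists with a mean of at least 10 FPKM, 1 point per gene and a bar at the median. Control 2 lies above the other libraries for contractile and immediate early genes (medians 0.16 and 0.39), while collagen chains, surface markers and folding genes stay near 0.

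The immediate early genes stood high together in 1 library, so their promoters were searched in RefSeq promoters of the rat build GRCr8. The 250 bases before each gene start were searched on both strands for the CArG box, the site of serum response factor, and for TGACGTCA, the full site of CREB. The promoter table had an entry for 17 of the 25 immediate early members (68.0%), too few for a share of the list to be used. A CArG box was found in the promoters of Egr1, Egr2, Zfp36 and Klf6, and in 1.497% of all 33469 promoters in the table. TGACGTCA was found for Dusp1, Btg2, Maff and Jund, and in 1.59% of all promoters. Among the promoters of the members, of which 65.5% had an entry, the shares were 1.29% for the CArG box and 2.82% for TGACGTCA. Junb, Dusp1 and Btg2, also highest in Control 2, had an entry but no CArG box in these 250 bases. Of the 16 contractile members 12 had an entry, and the only CArG box found was before Cnn2. A link between these sites and the level in Control 2 was not tested. The 120 bases before the start are shown for Egr1, Egr2 and Zfp36, each highest in Control 2 and with a CArG box, which is in capitals. They read 5′ to 3′ along the gene, and lie at chr18:26736958-26737077 on the plus strand, at chr20:21054442-21054561 on the minus strand and at chr1:92799109-92799228 on the minus strand.
Egr1: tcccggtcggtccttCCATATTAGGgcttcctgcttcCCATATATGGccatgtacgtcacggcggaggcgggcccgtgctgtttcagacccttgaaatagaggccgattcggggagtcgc
Egr2: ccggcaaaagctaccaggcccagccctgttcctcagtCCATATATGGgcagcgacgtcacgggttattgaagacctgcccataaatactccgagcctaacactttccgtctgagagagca
Zfp36: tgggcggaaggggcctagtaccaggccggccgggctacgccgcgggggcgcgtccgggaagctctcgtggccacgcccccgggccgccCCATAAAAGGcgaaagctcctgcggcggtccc
The Egr1 stretch holds 2 CArG boxes, 105 to 96 and 83 to 74 bases before the start, and Egr2 holds 1 at 83 to 74 bases. A match is a description of these letters and does not show binding.

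For the inflammation list the same promoters were searched on both strands for one form of the NF-kB site (GGGA, any base, then TTTCC). An entry was found for 27 of its 37 members (73.0%), again too few for a share of the list. A match was found before Cxcl1, Cxcl6, Il6, Nfkbia, Nfkbiz and Tnfaip3, in 0.314% of all 33469 promoters and in 0.443% of those of the members. Matches are in capitals in 120 bases before the starts of 3 of these, a chemokine, a cytokine and the inhibitor of NF-kB, at chr14:17479322-17479441, chr4:5894576-5894695 and chr6:78597073-78597192, all on the minus strand of GRCr8.
Cxcl1: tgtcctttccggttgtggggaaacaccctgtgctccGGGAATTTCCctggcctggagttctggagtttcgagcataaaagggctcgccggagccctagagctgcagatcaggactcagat
Il6: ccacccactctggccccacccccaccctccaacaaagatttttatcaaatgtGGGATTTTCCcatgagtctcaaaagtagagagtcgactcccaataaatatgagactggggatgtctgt
Nfkbia: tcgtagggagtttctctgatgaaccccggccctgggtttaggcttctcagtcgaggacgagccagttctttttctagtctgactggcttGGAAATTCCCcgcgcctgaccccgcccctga
In Nfkbia, at 44.4, 44.4 and 48.3 FPKM, the match lies on the opposite strand, 31 to 22 bases before the start.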

How the data were processed

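Total RNA, extracted by RNeasy, went into a SMARTer mRNA preparation, per the labels' protocols. The authors deposited 1 table of FPKM values with gene lengths. No source used here names an aligner, counting rule or strand setting, so overlapping and antisense genes cannot be told apart. The submitters' processing notes list the mouse builds GRCm38 and mm10, whereas the identifiers are rat. Columns headed N were taken as Control by elimination, since the 3 NAC columns, not used here, name their group. Dividing FPKM times length by a constant per library gave whole reads (100% of values, tolerance 0.01). Spread is the CV over 3 libraries, set beside the counting error of the mean reads. There were no tests.

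Members and lists were chosen with earlier results of these data known. The genes named were the 30 most abundant, the 5 markers, tendon and surface lists, up to 5 of each other list, members of other-cell lists, and the 15 highest, 10 lowest and, per library, 10 farthest in spread. Others were chosen after their values were seen, and some under the rule are not reported here. Of 1598 list entries, 28 matched by an older name and 41 not at all. Scaling, filters, units and leaving out libraries were varied. Calculations were checked on simulated data. Python 3.11.15, numpy 2.4.6, pandas 2.3.3 and matplotlib 3.10.9 were used.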

Additional observations from a re-analysis of the deposited data

How the results depend on the processing

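Of 69 values under alternative settings, 50 stayed within the spread between libraries, or within 1.5 times for counts, and 19 moved. For the median CV the limit was the SD of the 3 values with 1 library left out. These values have no direction, so none could reverse. The share of the 10 most abundant genes was 10.3% of reads and 8.603% without mitochondrial genes. The core matrix share was 17.3% of reads, 10.3% without mitochondrial genes and 1.81% for collagen chains alone. The secretory pathway share was 2.75% of reads and 2.97% without mitochondrial genes. The median CV was 5.68% at a mean FPKM of at least 5 and 9.16% for all genes above 0 in every library. It was 5.03% to 6.39% when 1 library was left out, where 2 libraries give a lower CV by construction, and lowest without Control 2. At 1.5 and 3 times the counting error 5024 and 1160 genes varied more than counting. The number of members was 8774 at a mean of at least 5 FPKM and 13877 at 0.5. Rescaling every library to the same larger sum multiplies all genes of a library alike, so the move of the 5 marker levels under it (Scx to 28.6) is fixed by the unit. The share of proteins with an N-terminal hydrophobic stretch was not run, since no protein sequences were used here. No paired analysis was possible because no groups were compared. Depth limits genes under about 0.1 FPKM. The read minimum of 10, the scaling of the Control 2 lists and the overlap without Control 2 were added after the data were seen.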
